A study of Mus musculus with 11 samples.

Results

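Immediate early genes are transcribed within minutes of a stimulus, from transcription factors that are already present in the resting cell. ERK signalling acts through the serum response factor SRF and its ETS partners, and stress and cyclic AMP signals act through ATF and CREB factors, while the products either bind DNA (the FOS and JUN subunits of the AP-1 dimer, ATF3, EGR1) or shut the response down (DUSP1, ZFP36). The transcripts are short-lived, enzymatic dissociation of tissue is a known inducer of them, and the caudal neural plate is itself a tissue of high FGF and ERK activity.

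Expression of 10 such genes, Fos, Fosb, Jun, Junb, Atf3, Egr1, Ier2, Ier3, Dusp1 and Zfp36, was read array by array from 11 Affymetrix whole-genome mouse arrays. The genes were listed by name. They are 10 of 18193 genes that have a probe set with a single gene symbol, and they are covered by 11 probe sets. Where a gene had more than 1 probe set, as Jun did, the probe set of highest mean led. Signals are on a log2 scale, so a difference of 1 is a 2-fold change, and signals of different probe sets do not compare amounts of RNA between genes.

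There were 3 arrays of closed neural tube from E9.5, 3 of open neuroepithelium from E9.5, 2 of closed neural tube from E8.5 and 3 of open neuroepithelium from E8.5. All came from C57BL/6 embryos with no transgene or mutant allele named in the labels, and tissue was pooled by litter. Every embryo was kept on ice in 2.5% pancreatin and 0.5% trypsin, for 8 min at E9.5 and 5 min at E8.5, before neuroepithelium with its closely attached notochord was detached by hand. Stage and protease time therefore cannot be told apart, nor can region and axial level, because closed samples were taken rostral to open ones. Tissue that saw no protease was not analysed here, so these comparisons do not measure induction by the dissection itself.

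The labelled tissue was checked against its markers, and 7 of 7 neuroepithelial markers lay above the filter for testing (a mean signal of 4.30, the 40th percentile of all probe sets) in each of the 4 groups. Markers of other cell types were also measured: 8 of 8 neural crest, 8 of 9 surface ectoderm, 7 of 9 paraxial mesoderm, 6 of 6 notochord, 4 of 8 endoderm, 4 of 8 blood and 3 of 8 endothelial genes on the array lay above the filter over the 11 arrays. Neural tube itself gives rise to crest cells, and notochord was taken with it. Krt8 and Krt18 were in both the notochord and the surface ectoderm lists, so these lists are not independent. A control signal that is read for RNA quality varied between arrays. Control probe sets for Gapdh and Actb gave a 3-prime minus 5-prime signal of 1.20 to 1.72 in closed E9.5 arrays, 1.14 to 2.48 in open E9.5 arrays, 1.18 to 1.82 in closed E8.5 arrays and 1.15 to 1.32 in open E8.5 arrays.

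The stretches upstream of 4 of the genes are shown because they carry the letters through which such genes are known to be induced. Sequences are from RefSeq, build GRCm38.p6, and 8 of the 10 genes had a promoter entry. Capitals mark matches on either strand to TGACGTCA (the cyclic AMP response element), to its core TGACGT, which overlaps it, to TGACATCA (the AP-1-like letters known from the Jun promoter) or to the CArG box that SRF binds.

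Fos, chr12:85473790-85473889, plus strand: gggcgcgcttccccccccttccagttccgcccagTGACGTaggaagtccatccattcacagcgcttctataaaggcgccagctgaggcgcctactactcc
Jun, chr4:95052223-95052322, minus strand: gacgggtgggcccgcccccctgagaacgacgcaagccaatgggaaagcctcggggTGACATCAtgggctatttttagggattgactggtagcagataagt
Dusp1, chr17:26508568-26508667, minus strand: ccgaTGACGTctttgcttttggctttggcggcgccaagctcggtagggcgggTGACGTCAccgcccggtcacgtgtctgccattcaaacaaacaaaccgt
Zfp36, chr7:28379229-28379328, minus strand: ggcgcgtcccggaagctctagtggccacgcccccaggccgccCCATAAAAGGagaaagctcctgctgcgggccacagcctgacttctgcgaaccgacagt

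The Fos, Jun and Zfp36 stretches end at the base before the annotated start, and the Dusp1 stretch covers bases 195 to 96 before it. Over the 250 bases before the start, TGACGT was found in Fos, Atf3 and Dusp1, 3 of the 8 windows, against 6.47% of all 32851 windows. TGACGTCA was found in Dusp1 (1.55% of all windows), TGACATCA in Jun (2.93%) and the CArG box in Zfp36 (1.47%). The AP-1 letters TGAGTCA were in 0 of the 8 windows and in 4.46% of all windows. A match of letters is a description and not a site shown to be bound. Bases further upstream were not scanned and Egr1 and Ier2 had no window, so a motif not named for a gene may still lie elsewhere.

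**Figure D1:**
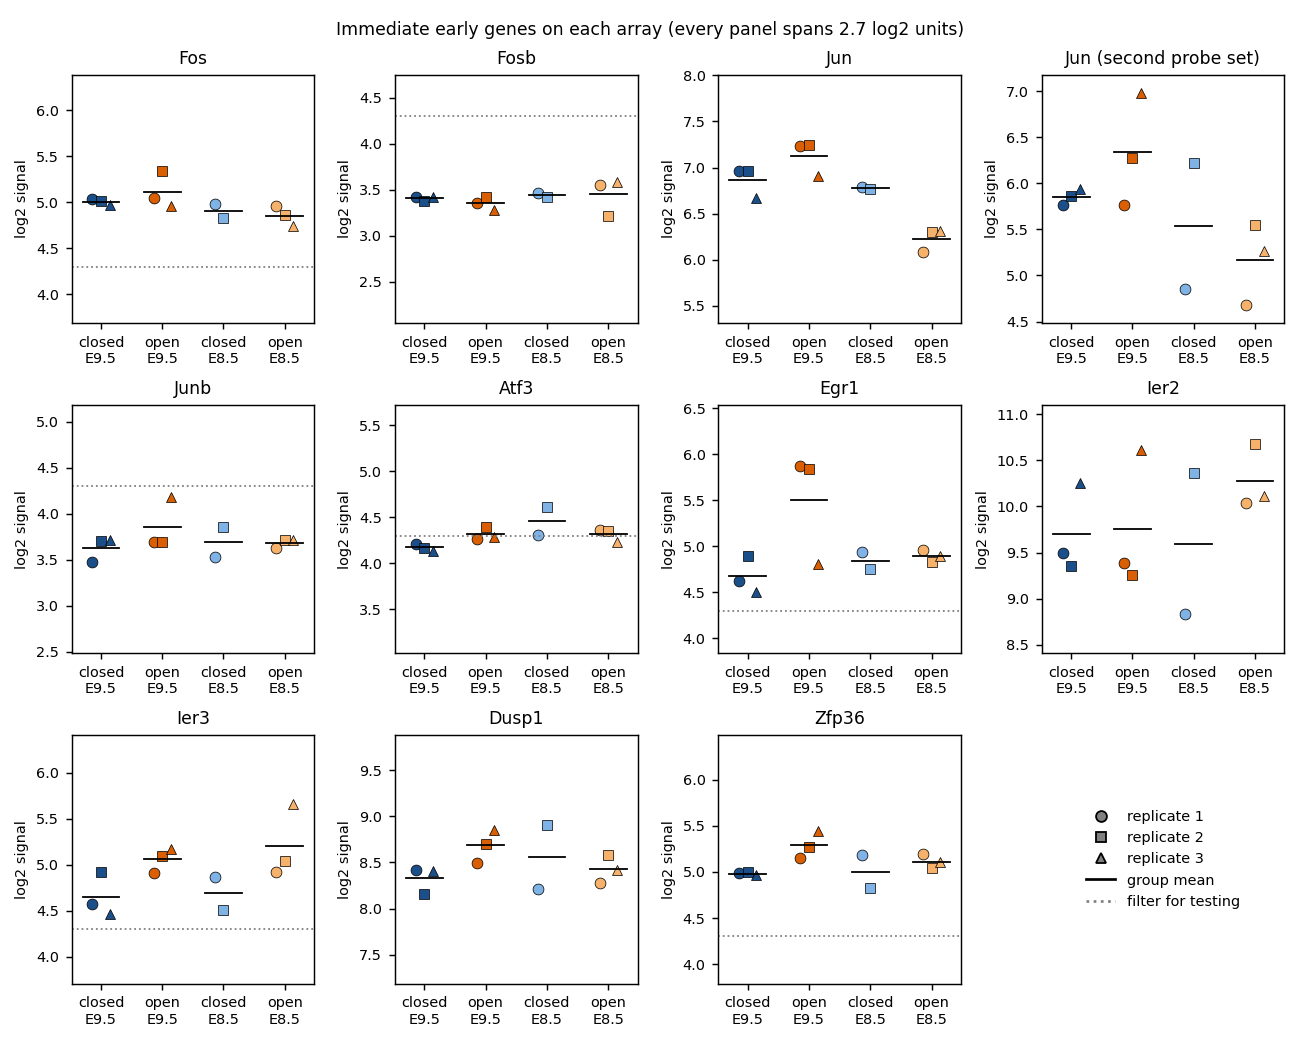
Log2 signal (vertical axis) of the 11 probe sets on each array. Each panel is 1 probe set, each point 1 array placed by group, with circles, squares and triangles for replicates 1, 2 and 3, a black bar at the group mean and a dotted line at the filter of 4.30 where it falls in the panel. The open E8.5 arrays lie below the other 8 arrays on the leading Jun probe set, and Ier2 differs most between replicates.

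The AP-1 subunits are described first. Fos, whose product pairs with JUN proteins, had 5.04, 5.01 and 4.97 in closed E9.5 arrays and 5.05, 5.34 and 4.96 in open E9.5 arrays. It had 4.98 and 4.83 in closed E8.5 arrays and 4.96, 4.87 and 4.74 in open E8.5 arrays. The 11 Fos values spanned 0.60 in all, near the middle of the array's probe sets, and the closed and open groups overlapped at both stages.

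Fosb, a second FOS-type subunit, lay below the filter on all 11 arrays. It had 3.42, 3.38 and 3.42 in closed E9.5 arrays and 3.36, 3.42 and 3.28 in open E9.5 arrays. Values were 3.46 and 3.42 in closed E8.5 arrays and 3.56, 3.22 and 3.59 in open E8.5 arrays. Junb, a JUN-type subunit that can hold back JUN activity, was below the filter on all 11 arrays too. It had 3.48, 3.70 and 3.72 in closed E9.5 arrays and 3.69, 3.69 and 4.19 in open E9.5 arrays. It had 3.53 and 3.86 in closed E8.5 arrays and 3.63, 3.72 and 3.72 in open E8.5 arrays. Neither gene was tested, and for both the groups overlapped in every pair.

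Jun encodes the core AP-1 subunit and lies on chromosome 4 from 95049036 to 95052222 in GRCm38.p6. Its leading probe set read 6.96, 6.96 and 6.67 in closed E9.5 arrays and 7.24, 7.24 and 6.90 in open E9.5 arrays. It read 6.79 and 6.77 in closed E8.5 arrays and 6.08, 6.30 and 6.31 in open E8.5 arrays. The order of the group means was open E9.5 (7.13), closed E9.5 (6.86), closed E8.5 (6.78) and open E8.5 (6.23). All 3 open E8.5 arrays lay below every other array, and no 2 neighbours in that order differed at an adjusted p under 0.05 in the fit without a replicate block.

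The second Jun probe set was less steady, with a within-group SD of 0.55. It read 5.76, 5.86 and 5.94 in closed E9.5 arrays and 5.77, 6.28 and 6.98 in open E9.5 arrays. It read 4.85 and 6.22 in closed E8.5 arrays and 4.68, 5.55 and 5.26 in open E8.5 arrays. Its open E8.5 arrays also lay below its open E9.5 arrays, but they overlapped the closed E8.5 arrays.

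Atf3, a stress-induced factor that dimerizes with JUN, sat at the filter: 5 of 11 arrays were above it. It had 4.21, 4.17 and 4.14 in closed E9.5 arrays and 4.27, 4.40 and 4.28 in open E9.5 arrays. It had 4.31 and 4.61 in closed E8.5 arrays and 4.36, 4.35 and 4.23 in open E8.5 arrays. The 3 closed E9.5 values were the lowest of the 11.

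Egr1, a zinc finger transcription factor induced through SRF, had 4.63, 4.89 and 4.50 in closed E9.5 arrays and 5.87, 5.84 and 4.80 in open E9.5 arrays. It had 4.93 and 4.75 in closed E8.5 arrays and 4.96, 4.83 and 4.89 in open E8.5 arrays. Replicates 1 and 2 of open E9.5 stood alone, and the other 9 arrays lay between 4.50 and 4.96.

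Ier2 encodes a short-lived nuclear protein. It had 9.50, 9.36 and 10.25 in closed E9.5 arrays and 9.39, 9.26 and 10.62 in open E9.5 arrays. It had 8.83 and 10.36 in closed E8.5 arrays and 10.03, 10.67 and 10.11 in open E8.5 arrays. Replicates of 1 group were far apart and all groups overlapped: the within-group SD of 0.65 was at the 99.5th percentile of all tested genes.

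Ier3 encodes a stress-induced protein linked to cell survival. It had 4.57, 4.92 and 4.46 in closed E9.5 arrays and 4.91, 5.10 and 5.17 in open E9.5 arrays. It had 4.87 and 4.51 in closed E8.5 arrays and 4.92, 5.04 and 5.66 in open E8.5 arrays. The closed arrays lay below all open arrays at E8.5, while at E9.5 the groups overlapped by a single closed array.

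Dusp1, a phosphatase that switches off stress kinases and ERK, had 8.42, 8.16 and 8.41 in closed E9.5 arrays and 8.50, 8.70 and 8.85 in open E9.5 arrays. It had 8.21 and 8.91 in closed E8.5 arrays and 8.28, 8.58 and 8.42 in open E8.5 arrays. Zfp36, which binds AU-rich elements and speeds the decay of immediate early transcripts, had 4.99, 5.00 and 4.96 in closed E9.5 arrays and 5.15, 5.27 and 5.45 in open E9.5 arrays. It had 5.18 and 4.83 in closed E8.5 arrays and 5.19, 5.04 and 5.10 in open E8.5 arrays. In both genes the closed E9.5 arrays lay below the open E9.5 arrays, and the E8.5 groups overlapped.

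Tests were made for the 8 members above the filter, within a limma fit of all 13338 tested genes and with p-values adjusted over all of them. A gene was counted as past the threshold at an adjusted p under 0.05. The labels call the arrays biological replicates.

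In open neuroepithelium Jun was higher at E9.5 than at E8.5, by 0.90 on the log2 scale (SE 0.14, adjusted p = 0.00247), which is 1.86-fold. Jun was the single member past the threshold in that comparison, 1 of 8, while 5.02% of all tested genes passed. It was also the single member whose open E9.5 and open E8.5 arrays did not overlap, as was so for 21.8% of all tested genes. Fewer expressing cells and less RNA per cell cannot be told apart in such pooled tissue. The second Jun probe set differed by 1.18 in the same direction (SE 0.37), with an adjusted p of 0.138 when 23203 probe sets were tested one by one.

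The other members in open tissue did not pass. Egr1 differed by 0.61 (SE 0.24, adjusted p = 0.197) and Fos by 0.26 (SE 0.11, adjusted p = 0.264), E9.5 minus E8.5. Dusp1 differed by 0.26, Zfp36 by 0.18, Atf3 by 0.00, Ier3 by -0.14 and Ier2 by -0.52. Without open E9.5 replicates 1 and 2, the arrays of highest 3-prime to 5-prime signal, the Jun difference was 0.67 and its adjusted p 0.145, with a single open E9.5 array left. Without the same 2 arrays the Egr1 difference turned to -0.09 and that of Fos was 0.11. Marker lists moved with stage in open tissue as well, and 5.02% of all tested genes were called there. Of tested blood genes 3 of 4 were higher at E9.5, of notochord genes 2 of 6 lower (median -0.50). Of surface ectoderm genes 1 of 8 was lower (median -0.41), and of neural crest genes 1 of 8 was higher and 1 lower. Of neuroepithelial and of paraxial mesoderm genes 1 of 7 was higher. Mean blood marker levels were 6.25 to 6.42 in open E9.5 arrays and 4.51 to 5.29 in open E8.5 arrays. The part of these tissues in the Jun difference was not tested.

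In closed neural tube 0 of 8 members passed the threshold between E9.5 and E8.5 with limma, 1 had an unadjusted p under 0.05 (10.2% of all tested genes did), and 2.42% of all tested genes passed. Jun differed by 0.09 (95% interval -0.25 to 0.42) and Fos by 0.10 (95% interval -0.18 to 0.38). Atf3 had the member difference with the smallest p, -0.29 (SE 0.11, adjusted p = 0.3), and its 3 closed E9.5 arrays lay below both closed E8.5 arrays. Atf3 was 1 of 8 members whose closed groups did not overlap, against 21.2% of all tested genes. Of marker genes in closed tissue, 1 of 7 neuroepithelial genes was lower and 1 of 6 notochord genes higher at E9.5. Blood genes had a median difference of 1.48, with 0 of 4 called. The part of these tissues in the member differences was not tested. Over both regions together Jun was the single member past the threshold between stages, at 0.49 (SE 0.10, adjusted p = 0.0127), against 6.42% of all tested genes. That call was lost with a replicate block (adjusted p = 0.0656). The block pairs the stages by number, and arrays of the same number had correlations from -0.529 to 0.303 between stages. Without open E9.5 replicates 1 and 2 the difference was 0.38, with a single open E9.5 array left. The second Jun probe set differed by 0.75 over both regions (SE 0.28, adjusted p = 0.212 with limma over 23203 probe sets).

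**Figure D2:**
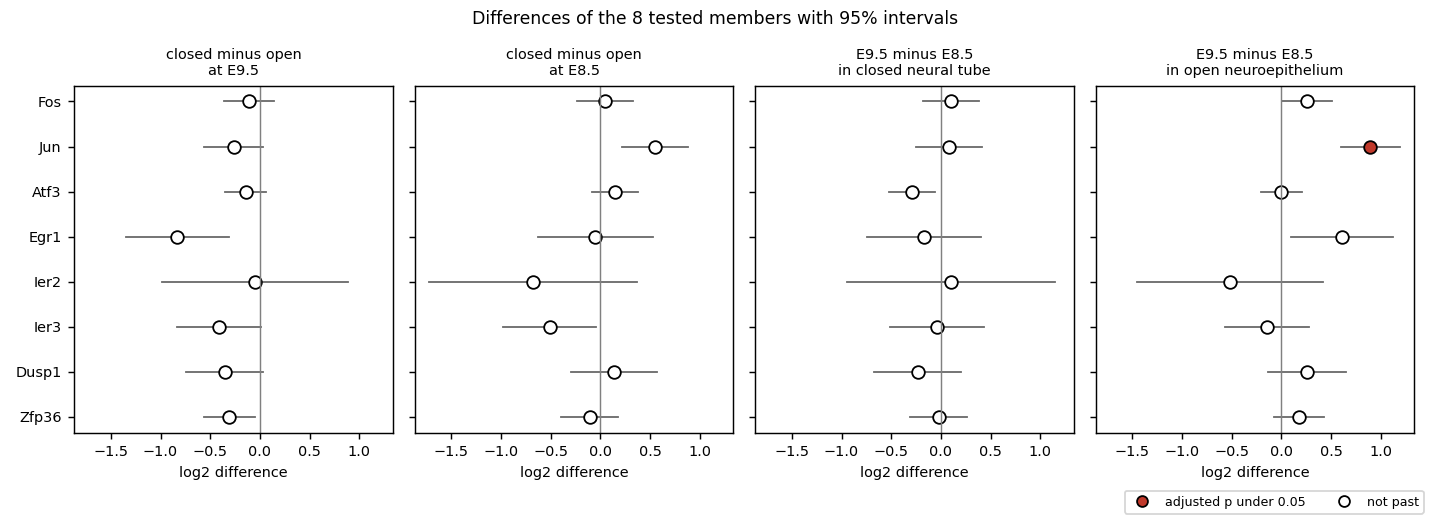
Log2 differences (horizontal axis) of the 8 tested members with 95% intervals of the fit, in 4 panels for closed minus open at E9.5, closed minus open at E8.5, and E9.5 minus E8.5 in closed and in open tissue. Filled points passed an adjusted p under 0.05, and Jun in open tissue (0.90) is the only filled point.

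Between regions at E9.5 the differences of all 8 tested members were negative, lower in closed neural tube, but 0 of 8 passed the threshold with limma. Their median difference was -0.28, against -0.01 over all tested genes, of which 51.3% were negative. An unadjusted p under 0.05 was found for 2 members, Egr1 and Zfp36, as for 19.2% of all tested genes, and 8.54% of all tested genes passed the adjusted threshold. The members are measured on the same arrays and are not independent of one another. Marker lists moved with region too: of the tested neural crest genes 4 of 8 were higher in closed tissue at E9.5 and 0 lower (median 0.98), of neuroepithelial genes 4 of 7 higher, of notochord genes 2 of 6 higher, and of surface ectoderm genes 1 of 8 higher and 2 lower. Of paraxial mesoderm genes 1 of 7 was lower, of endoderm genes 1 of 4 was lower, and of endothelial genes 1 of 3 was higher and 1 lower. Of blood genes 0 of 4 were called (median -0.60). Mean crest marker levels were 6.90 to 7.07 in closed and 5.54 to 5.71 in open E9.5 arrays. Their part in the member differences was not tested.

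Egr1 differed by -0.83 between closed and open tissue at E9.5 (SE 0.24, adjusted p = 0.0517). The labels do not say that closed and open arrays of the same replicate number share litters. At E9.5 the deviations of such arrays from their group means correlated at 0.308, 0.341 and 0.687. Numbers 1 and 2 were nearly as close across numbers (0.264 and 0.317). In a limma fit that took the number as a block all the same, the Egr1 difference was -0.83 with an adjusted p of 0.0031. That fit called 16.7% of all genes. By replicate number the closed minus open differences of Egr1 were -1.25, -0.95 and -0.30. Egr1 was high on the 2 open E9.5 arrays of highest 3-prime to 5-prime signal, 2.20 and 2.48, and without them the difference was -0.13. With that signal as a covariate it was -0.50 (adjusted p = 0.0416), in a fit that called 1764 of 13338 genes, against 1139 without the covariate.

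Zfp36 differed by -0.31 (SE 0.12, adjusted p = 0.156), with differences by replicate number of -0.16, -0.27 and -0.49. Atf3, Dusp1, Egr1, Ier3 and the leading Jun probe set were likewise lower in closed tissue at every number. The share of all tested genes that were so was not counted. Dusp1 differed by -0.36 (SE 0.18, adjusted p = 0.316), and Ier3 by -0.41 (SE 0.19, adjusted p = 0.276). Atf3, Dusp1 and Zfp36, 3 of the 8, had closed and open groups that did not overlap, all lower in closed tissue, as did 13.7% of all tested genes. Jun differed by -0.26 (SE 0.14), Atf3 by -0.14, Fos by -0.11 and Ier2 by -0.05.

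At E8.5, 0 of 8 members passed the threshold between closed and open tissue with limma, 2 had an unadjusted p under 0.05 (14.9% of all tested genes did), and 7.17% of all tested genes passed. Marker lists moved between these groups as well, and their part was not tested. Of tested neural crest genes 4 of 8 were higher and 1 lower in closed tissue (median 1.03), and of neuroepithelial genes 3 of 7 were higher. Of surface ectoderm genes 1 of 8 was higher and 4 lower (median -0.99), and of notochord genes 4 of 6 were lower (median -0.80). The surface ectoderm and notochord lists share Krt8 and Krt18, so the same genes can count in both. Of paraxial mesoderm genes 1 of 7 was lower, and of endothelial genes 1 of 3 was lower. Of endoderm genes 0 of 4 were called, and of blood genes 0 of 4 (median 0.65). Jun ran opposite to E9.5, at 0.55 (SE 0.15, adjusted p = 0.0520), with both closed arrays above all open ones. The second Jun probe set differed by 0.37 (SE 0.42, adjusted p = 0.944 over 23203 probe sets), and its groups overlapped. Ier3 differed by -0.51 (SE 0.21, adjusted p = 0.269). Jun and Ier3 were the 2 of 8 members whose groups did not overlap, against 27.5% of all tested genes. Ier2 differed by -0.68, Egr1 by -0.05, Zfp36 by -0.11, Fos by 0.05, Dusp1 by 0.14 and Atf3 by 0.15. With the replicate number as a block, which called 9.99% of all genes, Jun (0.59, adjusted p = 0.0164) and Ier2 (-0.76, adjusted p = 0.0216) passed. The pair differences at numbers 1 and 2 were 0.71 and 0.47 for Jun and -1.20 and -0.31 for Ier2. The Ier2 difference, without the block, was 0.09 without closed E8.5 replicate 1 and -1.44 without replicate 2. The 3-prime to 5-prime signal of closed replicate 1 was 1.82, against 1.15 to 1.32 in open E8.5 arrays.

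Whether the region difference itself changed with stage was asked with an interaction term, and 0 of 8 members passed with limma, against 1.25% of all tested genes. The Jun interaction was -0.81 (SE 0.20, adjusted p = 0.111) and that of Egr1 -0.78 (adjusted p = 0.515), and these 2 were the members with an unadjusted p under 0.05, as 9.6% of all tested genes had. Without open E9.5 replicates 1 and 2 the Egr1 interaction was -0.08. With the replicate block, which called 3.39% of all genes, the Jun interaction was -0.85 (adjusted p = 0.0245). These Jun values are of the leading probe set. The second had an interaction of -0.86 without the block (SE 0.56, adjusted p = 0.767 over 23203 probe sets).

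Over both stages together 0 of 8 members passed between regions with limma, 3 had an unadjusted p under 0.05 (20.6% of all tested genes did), and 11.9% of all tested genes passed. Ier3 differed by -0.46 (adjusted p = 0.0626), Egr1 by -0.44 (adjusted p = 0.164) and Zfp36 by -0.21 (adjusted p = 0.194). With the replicate block, which called 16.8% of all genes, Egr1 (-0.44, adjusted p = 0.0280), Ier2 (-0.40, adjusted p = 0.0380) and Ier3 (-0.35, adjusted p = 0.0441) passed, all lower in closed tissue.

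**Figure D3:**
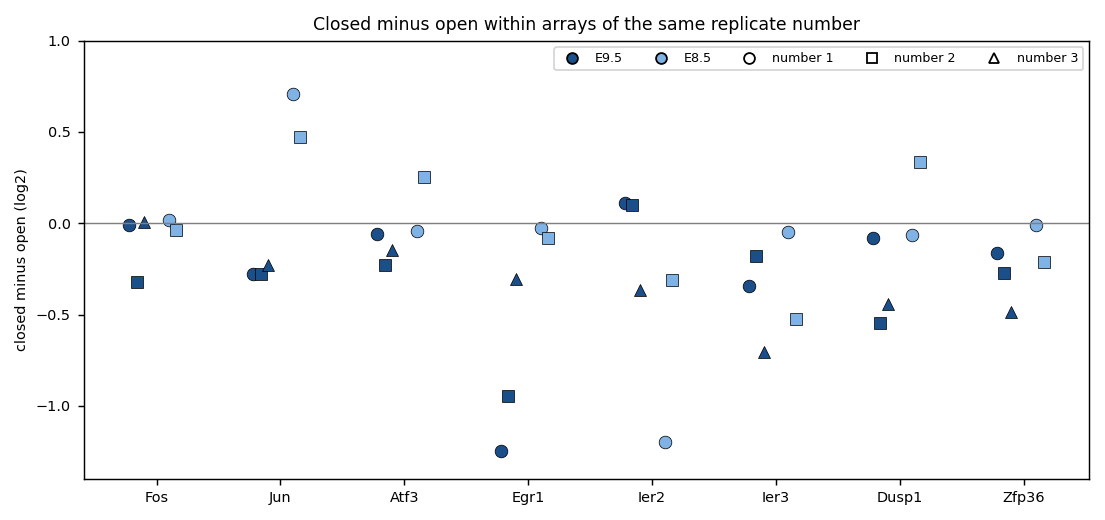
Closed minus open log2 difference (vertical axis) of the 8 tested members within arrays of the same replicate number, dark for E9.5 and light for E8.5, with the marker shape giving the number. Jun is below 0 in all 3 E9.5 pairs (-0.28, -0.28 and -0.23) and above 0 in both E8.5 pairs (0.71 and 0.47).

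Ier2 moved with the 3-prime to 5-prime control signal across groups. The 4 arrays of lowest 3-prime to 5-prime signal, 1.14 to 1.20, came from 4 different groups and were the 4 of highest Ier2, 10.25 to 10.67. They were closed and open E9.5 replicate 3 and closed and open E8.5 replicate 2. Control signal and replicate number therefore cannot be told apart in them, and they are not 4 separate observations. The other 7 arrays, with a 3-prime to 5-prime signal of 1.30 to 2.48, had Ier2 between 8.83 and 10.11. With that signal as a covariate the closed minus open difference of Ier2 at E9.5 was -0.69 (adjusted p = 0.0488), against -0.05 without it. The covariate fit called 1764 of 13338 genes at E9.5, against 1139 without the covariate. The part of RNA quality in the levels of Ier2, Egr1 and Jun was not tested beyond these values.

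**Figure D4:**
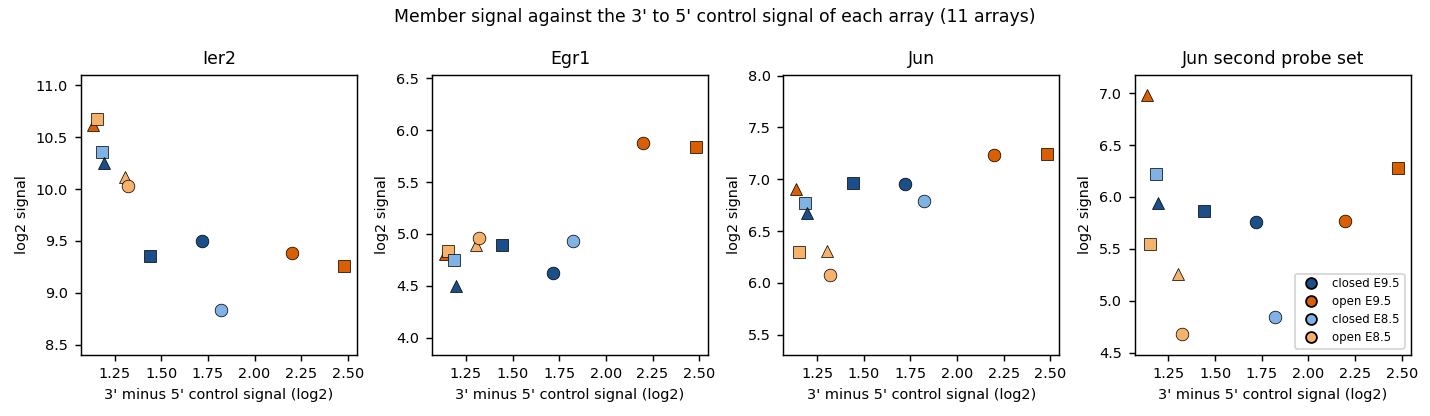
Log2 signal of Ier2, Egr1 and both Jun probe sets (vertical axes) against the 3-prime minus 5-prime control signal of the same array (horizontal axis, log2). Each point is 1 of 11 arrays, coloured by group. Ier2 is highest at the 4 lowest control values, and Egr1 is highest at the 2 highest.

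The rest of the immediate early programme was read from lists of related genes. Of 23 other immediate early transcription factors 19 were tested. At E9.5 3 were lower and 0 higher in closed tissue (8.54% of all tested genes were called), and at E8.5 1 was lower and 0 higher (7.17%). Maff, a small MAF partner of AP-1 family proteins, had 6.77, 6.60 and 6.63 in closed E9.5 arrays and 7.97, 7.98 and 8.12 in open E9.5 arrays, a difference of -1.36 (SE 0.15, adjusted p = 9.9e-05). At E8.5 it had 6.06 and 6.56 in closed arrays and 7.30, 7.66 and 7.54 in open arrays, a difference of -1.19 (SE 0.17, adjusted p = 0.000739). No closed Maff value reached any open one. The median difference of the 19 genes was 0.01 at E9.5. Over both stages together Klf10, a TGF-beta-inducible zinc finger factor, was lower in closed tissue (-0.41, adjusted p = 0.0258), a call lost in 6 of 21 alternatives.

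Bhlhe40, a transcriptional repressor of the clock and of stress responses, was lower in closed tissue at E9.5 (-0.42, adjusted p = 0.0201, lost in 6 of 22 alternatives) and higher at E9.5 than at E8.5 in open tissue (0.76, adjusted p = 0.000965). Ier5, an immediate early gene linked to heat shock factor activity, was higher at E9.5 than at E8.5 in closed tissue (0.78, adjusted p = 0.00523) and in open tissue (0.65, adjusted p = 0.00465). Between stages 1 of the 19 rose in closed tissue, where 2.42% of all tested genes were called, and 2 in open tissue, where 5.02% were, and 0 fell in either.

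Of 27 immediate early effectors 26 were tested, and their region differences ran both ways. At E9.5 5 were higher and 3 lower in closed tissue (8.54% of all tested genes were called), and at E8.5 5 were higher and 6 lower (7.17%). Gadd45g and Gadd45a, growth arrest genes that activate stress kinases, were higher in closed tissue at E9.5 by 1.95 (adjusted p = 2.36e-05) and 1.75 (adjusted p = 0.000365). The open E9.5 mean of Gadd45g was 4.35, near the filter, so the size of its difference depends on the background. Per1, a clock gene that also responds to cyclic AMP, and Nfkbiz, an inflammatory cofactor, were lower there, with differences of -0.87 (adjusted p = 0.0012) and -0.89 (adjusted p = 0.0194, lost in 6 of 22 alternatives). At E8.5 Ccn2, a matricellular target of SRF and YAP, was higher in closed tissue by 2.44 (adjusted p = 9.33e-05), and Gadd45a by 1.64 (adjusted p = 0.00158). Dusp4, a nuclear ERK phosphatase, was lower (-1.83, adjusted p = 0.00139), and so was the kinase gene Sgk1 (-1.32, adjusted p = 0.0011). Between stages Socs3, the inhibitor of JAK and STAT signalling, rose at E9.5 in closed tissue (1.58, adjusted p = 0.00491) and in open tissue (1.22, adjusted p = 0.00716). Ccn2 rose in open tissue (1.14, adjusted p = 0.0158, lost in 5 of 22 alternatives) and Gadd45g in closed tissue (0.88, adjusted p = 0.0439, lost in 15 of 21). In each stage comparison 2 of the 26 were called, with 2.42% of all tested genes called in closed and 5.02% in open tissue.

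Of the heat shock genes, which encode chaperones and their regulators, 12 were tested, and 0 passed the threshold in any of the 7 contrasts with limma, with 0 at an unadjusted p under 0.05. Of 13 tested genes of the integrated stress response, which is driven by the factor ATF4, 1 was higher and 1 lower in closed tissue at E9.5, where 8.54% of all tested genes were called. These were Vldlr, a lipoprotein receptor, at 0.94 (adjusted p = 0.0441, lost in 9 of 22 alternatives), and Ddit4, an inhibitor of mTOR, at -1.12 (adjusted p = 0.0313, lost in 5 of 22). Neither stage comparison called any of the 13, where 2.42% of all tested genes were called in closed and 5.02% in open tissue.

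FGF signalling lies upstream of ERK, and of 14 tested FGF ligands and ERK feedback genes closed tissue had 9 lower and 0 higher at E9.5, with a list median of -1.03, and 10 were lower at E8.5, with a median of -1.70. The shares over all tested genes were 8.54% and 7.17%. Fgf8, the caudal FGF ligand, differed by -3.59 at E9.5 (adjusted p = 4.69e-07) and by -4.37 at E8.5 (adjusted p = 3.03e-07). Its closed arrays read 4.55, 4.58 and 4.02 at E9.5 and 3.82 and 3.86 at E8.5, near or below the filter, so the size of these differences depends on the background. Fgf18, another FGF ligand, differed by -4.09 at E9.5 (adjusted p = 4.5e-06) and rose at E9.5 in open tissue (1.59, adjusted p = 0.00981). Its closed E9.5 mean was 4.96, so the background may bear on the size of that region difference too. Il17rd, a feedback inhibitor of FGF receptors, differed by -3.10 at E8.5 (adjusted p = 8.72e-08). Of the members, Fos, which spanned 0.60 over all arrays, differed between regions by -0.11 at E9.5 and 0.05 at E8.5, and Egr1 by -0.83 and -0.05. All 8 tested members had negative region differences at E9.5 and 4 of 8 at E8.5, with 0 past the threshold. Between stages in closed tissue 5 of the 14 rose at E9.5, among them Etv5, an ETS factor induced by FGF (2.50, adjusted p = 0.000513), and Il17rd (1.97, adjusted p = 1.04e-05), where 2.42% of all tested genes were called.

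Of 15 tested genes of the ERK, SRF and CREB machinery closed tissue had 3 lower at E9.5 and 0 at E8.5, with 8.54% and 7.17% of all tested genes called. Elk3, an ETS partner of SRF, differed by -1.67 at E9.5 (adjusted p = 0.000224), and Srf itself by -0.73 (adjusted p = 0.00197). Srf had 8.75, 8.57 and 8.76 in closed E9.5 arrays and 9.39, 9.37 and 9.50 in open E9.5 arrays, which do not overlap. Over both stages Braf, a kinase upstream of ERK, was lower in closed tissue (-0.58, adjusted p = 0.002). In open tissue 3 of the 15 rose at E9.5 (5.02% of all tested genes were called), among them Elk3 (1.26, adjusted p = 0.00375) and Mapk9, which encodes a kinase of JUN (0.72, adjusted p = 0.0225, lost in 7 of 22 alternatives). Mapk9 had 8.36, 8.45 and 8.51 in open E9.5 arrays and 7.52, 7.88 and 7.76 in open E8.5 arrays.

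Of 8 tested genes of AU-rich element mRNA decay, the pathway in which Zfp36 acts, closed E9.5 tissue had 2 lower (8.54% of all tested genes were called), and closed E8.5 tissue 1 (7.17%). Zfp36l2, a close relative of Zfp36, had 9.27, 9.62 and 9.20 in closed E9.5 arrays and 10.77, 10.86 and 10.52 in open E9.5 arrays, a difference of -1.35 (SE 0.16, adjusted p = 0.000193). At E8.5 the difference was -0.95 (SE 0.18, adjusted p = 0.00609). Cnot6l, a deadenylase subunit, differed by -0.92 at E9.5 (adjusted p = 0.00755) and rose at E9.5 in open tissue (1.10, adjusted p = 0.00433). Zfp36l1, the other close relative of Zfp36, went the opposite way and was higher in closed tissue over both stages (0.31, adjusted p = 0.016).

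**Figure D5:**
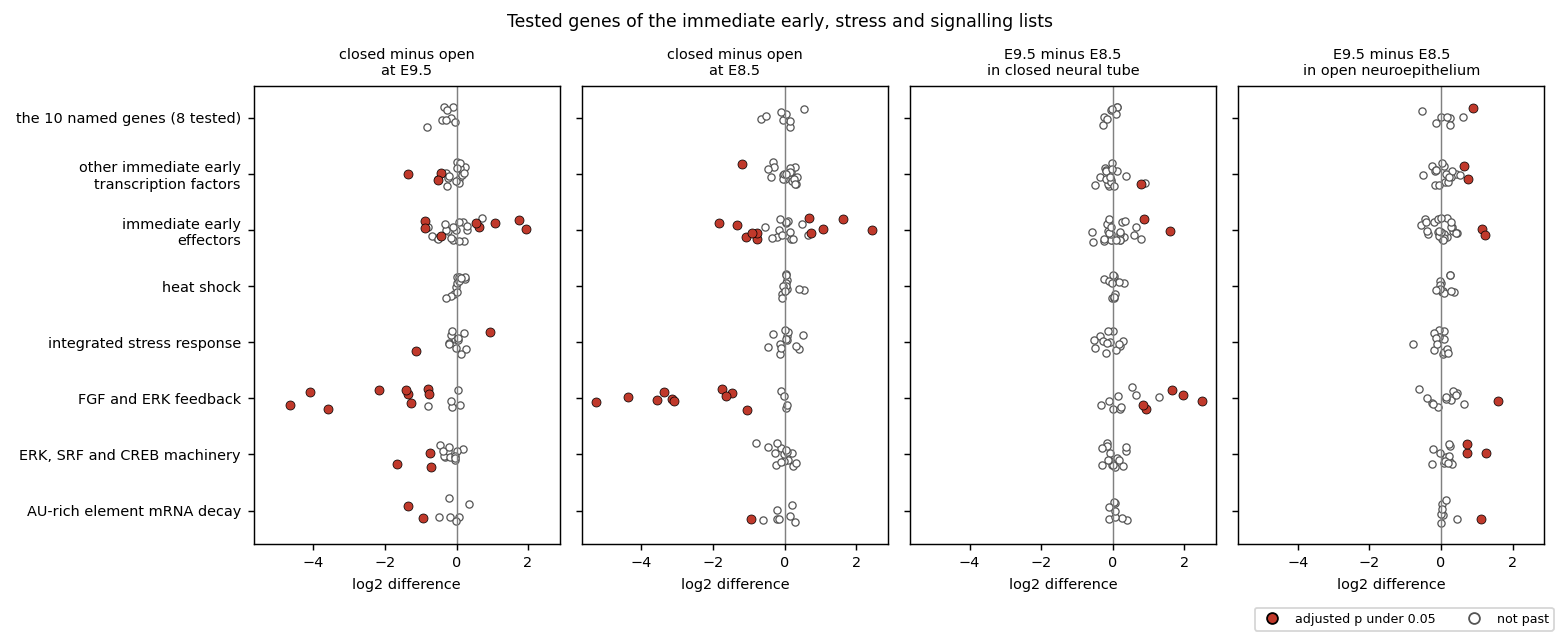
Log2 differences (horizontal axis) of every tested gene of the members and of 7 related lists, 1 row per list and 1 panel per comparison (closed minus open at E9.5 and at E8.5, and E9.5 minus E8.5 in closed and in open tissue). Filled points passed an adjusted p under 0.05: 9 and 10 of 14 genes of FGF and ERK feedback did so between regions, and 0 of 12 heat shock genes in any panel. Over all tested genes 8.54% and 7.17% passed between regions at E9.5 and E8.5, and 2.42% and 5.02% between stages in closed and open tissue.

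The genes whose signal followed Fos most closely over the 11 arrays, among 13330 tested genes outside the members, were Aldh1l2 (Pearson r = 0.91), Rnf187 (0.90), Zfp689 (0.89), Rprd2 (0.88) and Hint1 (0.88). The arrays share 4 groups and their RNA quality, Fos itself spanned 0.60, and the likeness is a description without a test.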

How the data were processed

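RNA from 11 pooled neuroepithelium samples was hybridized to Affymetrix whole-genome mouse arrays from 50 ng per sample with a 2-cycle labelling protocol, per the labels. The authors hybridized 12 arrays, of 111 embryos in all, and left out 1, of closed tissue at E8.5, after quality assessment. The deposited log2 signals cover 45101 probe sets, run from 2.37 to 14.717 and hold 0 missing values. The submitters' processing notes name MAS5 with no version or role, and how these values were summarized and normalized is not given in the sources used here. They were used as deposited.

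Probe sets with exactly 1 symbol (34945) were kept, and those with several (932), none (9160) or control status (64) left out. Each of 18193 genes took its probe set of highest mean, and the 13338 with a mean at or above 4.30, the 40th percentile, were tested, among them 8 of the 10 members. Fosb and Junb fell below. The 4 group means were fitted with limma 3.58.1 in R 4.3.3 (eBayes with an intensity trend, 7 residual degrees of freedom and 4.4 prior ones at the median), with Benjamini-Hochberg adjustment over all tested genes. The fit was tested on simulated data in which arrays were drawn independently of one another. Over the 4 group comparisons, log2 changes of 0.5 were recovered in 19.1% to 33.8% of cases and changes of 2 in 96% to 98.6%. Member differences near 0.5 can therefore be missed. The number of arrays limits the precision.

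Closed and open arrays of the same number had correlated deviations from their group means (0.576 and 0.697 at E8.5, where the 2 closed arrays mirror each other; 0.308, 0.341 and 0.687 at E9.5), so the number was used as a block for region contrasts. Some arrays of different number were as close (0.317), and the labels do not say that a number stands for shared litters. Region results with the block therefore rest on an assumed pairing. Between stages the correlations of arrays of the same number ran from -0.529 to 0.303, which gives no ground for taking the numbers as pairs. The replicate block alternative for stage contrasts paired them all the same, so its stage results rest on a pairing that these correlations do not bear out.

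Genes named were all 10 members, the up to 2 called genes with the smallest p either way per list and contrast (values for pooled contrasts are printed where they add a gene), and the 5 genes most like Fos. The members and lists were chosen with earlier results of these data known. Promoter windows came from RefSeq, GRCm38.p6, and were scanned over the 250 bases before the start.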

Additional observations from a re-analysis of the deposited data

Results flagged for a closer look

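No listed immediate early gene had a region difference that changed between the stages past the threshold in the fit without a replicate block, while with the block Jun did on its leading probe set (-0.85, adjusted p = 0.0245). In the fit without the block 5 genes of the related lists did, by the interaction term of the limma fit (the closed minus open difference at E9.5 minus that at E8.5). Il17rd, a feedback inhibitor of FGF receptors, had an interaction of 1.69 (SE 0.16, adjusted p = 0.00063). Etv5, an ETS factor induced by FGF, had 2.21 (SE 0.38, adjusted p = 0.0175). Gadd45g, a growth arrest gene, had 1.30 (SE 0.27, adjusted p = 0.0425), with an open E9.5 mean of 4.35, near the filter. Ccn2, a matricellular target of SRF and YAP, had -1.72 (SE 0.35, adjusted p = 0.0425). Bhlhe40, a transcriptional repressor, had -0.77 (SE 0.15, adjusted p = 0.0328), with means of 5.71 in closed and 6.13 in open tissue at E9.5 and of 5.72 in closed and 5.38 in open tissue at E8.5. The call was lost in 11 of 20 alternatives for Gadd45g, 11 of 21 for Ccn2, 10 of 21 for Bhlhe40 and 5 of 21 for Etv5, and in 0 of 21 for Il17rd.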

How the results depend on the processing

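Of the 22 alternative settings 1 was chosen after seeing the data (both open E9.5 arrays of highest 3-prime to 5-prime signal left out together). The 56 member differences gave 1173 comparisons with the main fit: 0 reversed as a call, 35 gained a call and 3 lost it. The main fit called only Jun, between stages in open tissue and over both regions, so few comparisons could lose or reverse a call. Differences that were not called did change sign, as for Atf3 between regions over both stages in 9 of 20 alternatives. For called list gene differences there were 1333 comparisons, of which 132 lost the call. Of 62 called differences of list genes, 31 lost the call in at least 1 alternative and 0 reversed: 22 were lost with both arrays out and 6 with the replicate block. Member counts past the threshold changed as follows, of 8 tested members except with the 60th percentile filter (3 tested) and with no filter (10 tested). For closed minus open at E8.5, 0 became 1 with a filter at the 60th percentile, without a trend, with the 3-prime to 5-prime covariate and with both arrays out, and 2 with the replicate block, and leaving out single arrays gave 0 to 1. At E9.5, 0 became 1 with quantile normalization, with arrays centred on their median and with the replicate block, and 2 with array weights and with the covariate, and single arrays gave 0 to 1 (1 without open E9.5 replicate 3, where Egr1 was -1.18). Over both stages, 0 became 1 with centring and with array weights, and 3 with the block and with the covariate, and single arrays gave 0 to 1. Between stages in open tissue, 1 became 4 with array weights and 0 with both arrays out, and single arrays gave 1 to 2. Over both regions, 1 became 0 with the block, where Jun had an adjusted p of 0.0656, and 0 with both arrays out, and single arrays gave 1 to 2. For the interaction, 0 became 1 with the block, and single arrays gave 0 to 2 (2 without open E9.5 replicate 3). Between stages in closed tissue the count was 0 in every alternative. The causes of these changes were not tested.

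Counts over all tested genes moved by more than 1.5 times in these cases. For closed minus open at E8.5, 957 became 1519 with the covariate. At E9.5, 1139 became 3424 with array weights, 2221 with the block, 1764 with the covariate and 603 with both arrays out. In open tissue, 670 became 4301 with array weights, 340 with the block and 182 with both arrays out, and single arrays gave 367 to 1262. In closed tissue, 323 became 215 with array weights, 150 with only the groups compared, 111 with the block and 730 with the covariate, and single arrays gave 174 to 375. Over both regions, 856 became 444 with the block, 1388 with the covariate and 504 with both arrays out. For the interaction, 167 became 452 with the block, 297 with the covariate and 72 with both arrays out, and single arrays gave 84 to 239. Quantile normalization or centring moved the median of all genes by at most 0.05 in size. Signals near the filter, as of Atf3, limit how small a difference can be seen. The closed E9.5 arrays of Egr1 (4.50 to 4.89) and Ier3 (4.46 to 4.92) were not far above it, so the sizes of their region differences may depend on the background.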
